A study of Homo sapiens with 6 samples.

Results

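The NRF2 antioxidant genes followed here are the transcription factor gene NFE2L2, its inhibitor gene KEAP1 and 7 target genes, NQO1, HMOX1, GCLC, GCLM, TXNRD1, SRXN1 and SLC7A11. They were chosen by symbol as known members of the pathway, with earlier results of these data known, and all 9 were present among the 23368 gene symbols of the count table. RNA-seq counts came from 6 libraries, 2 in each of 3 groups, made from MDA-MB231, a breast cancer line that lacks hormone receptors and has mesenchymal features. The cells had been transfected with siL1 or siL2, a pair of siRNAs against LSD1, or with a control siRNA (siControl). The labels name no other treatment or genotype, and all cells were grown in DMEM with FCS and transfected with interferin, a lipid reagent. LSD1 is a histone lysine demethylase encoded by KDM1A. Whether the 2 libraries of a group are separate cultures is not stated, and the p-values therefore measure the spread between these samples alone, which may be technical. The siRNA sequences are not in the labels either.

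NRF2, the protein of NFE2L2, is a leucine zipper transcription factor that is made continuously and destroyed continuously. In unstressed cells KEAP1 holds it and passes it to a CUL3 ubiquitin ligase. Oxidants and electrophiles modify cysteines of KEAP1, NRF2 then accumulates, pairs with a small MAF protein and binds the antioxidant response element upstream of genes for glutathione synthesis, thioredoxin recycling, quinone reduction and heme breakdown. Because this control acts mainly on the protein, the NFE2L2 transcript alone does not measure the activity of the pathway.

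The 9 base core of the antioxidant response element, searched as TGACNNNGC on both strands, was found in the RefSeq promoters (250 bases before to 50 after a transcript start, GRCh38.p14) of GCLM, KEAP1 and TXNRD1. The stretches around these matches are shown because they place the element beside the members whose transcripts are described here. Each is 30 bases long, written along the gene's own strand, with the 9 matching bases in capitals.
GCLM, chr1:93909445-93909474, minus strand: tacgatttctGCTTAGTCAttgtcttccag
KEAP1 downstream promoter, chr19:10502783-10502812, minus strand: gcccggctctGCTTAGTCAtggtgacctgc
KEAP1 downstream promoter, chr19:10502806-10502835, minus strand: acttttattgTGACACGGCgggcgcccggc
TXNRD1 upstream promoter, chr12:104215670-104215699, plus strand: acacgggctaTGACTTCGCtgttgtcaccg
TXNRD1 upstream promoter, chr12:104215761-104215790, plus strand: gcgtccttcgGCTCCGTCAgttcccacagg
TXNRD1 downstream promoter, chr12:104286920-104286949, plus strand: gtggatttctGCTTTGTCAttctgactctg
Where the capitals begin with GC and end with GTCA, the core lies on the opposite strand. Read on that strand, the GCLM match and one KEAP1 match were the same 9 bases, TGACTAAGC. Along the gene's own strand, these 2 matches began 34 and 31 bases upstream of the transcript start. TXNRD1 held a match in each of its 2 listed promoters, and the other listed KEAP1 promoter held none. NFE2L2, NQO1, GCLC and SRXN1 had listed promoters without these letters in the window, and HMOX1 and SLC7A11 were not matched in the promoter table. The motif was present in 13.3% of all 35116 promoters of this length. A match describes the letters only and says nothing about binding. Counted by gene symbol, 16.1% of 27305 symbols held it in at least 1 listed promoter. Promoters were matched for 7 of 9 members and for 69.9% of tested genes, which is too few, so a comparison of the members' share with that of other genes is void.

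KDM1A, the targeted gene, was lower in all 4 siRNA libraries. It had 27.7 and 28.1 CPM (the count per 1000000 counts of the library total) in the siL1 libraries and 17.4 and 18.1 CPM in the siL2 libraries, against 158 and 165 CPM in the siControl libraries. The libraries held 22047738 to 26765079 counts, and a gene at 0 in a library could stand at up to 3 counts, or 0.112 to 0.136 CPM, by counting error only. All 8 markers typical of MDA-MB231 (VIM, CD44, EGFR, MSN, AXL, CAV1, KRT18, KRT8) were tested and expressed, whereas the estrogen receptor gene ESR1 averaged 0.0203, 0.0374 and 0.0227 CPM in siL1, siL2 and siControl cells. ESR1 was 1 of 8 luminal breast markers, not all of which were silent, and 4 of the 8 passed the count filter. The 8 summed to 22.6 to 23.2 CPM in siL1 cells, 17.7 to 19.2 CPM in siL2 cells and 21.7 to 22.1 CPM in siControl cells. Of 16 blood cell markers 2 passed the count filter, and HBA1, HBB, MS4A1 and TYROBP were among those at 0 in all 6 libraries. The other of the 2, besides CD8A, was CD68, which carried nearly all of the summed level of 209 to 226 CPM in siL1 cells, 270 to 274 CPM in siL2 cells and 215 to 225 CPM in siControl cells. Fibroblast and endothelial markers summed to 26.4 to 28.0 CPM in siL1 cells and 16.9 to 18.9 CPM in siL2 cells, against 10.8 to 11.9 CPM in siControl cells. Of the 16 markers in that list 7 were tested, 4 rose with siL1 and 3 with siL2 (1 without siControl replicate 2), and COL1A2, DCN and LUM were at 0. Over all tested genes, 24.7% were higher with siL1 and 22.6% with siL2. The fibroblast and endothelial markers moved in the same libraries as the members below, and their part in those changes was not tested. In bulk RNA, more or fewer cells of a type cannot be told apart from more or less RNA per cell.

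**Figure D1:**
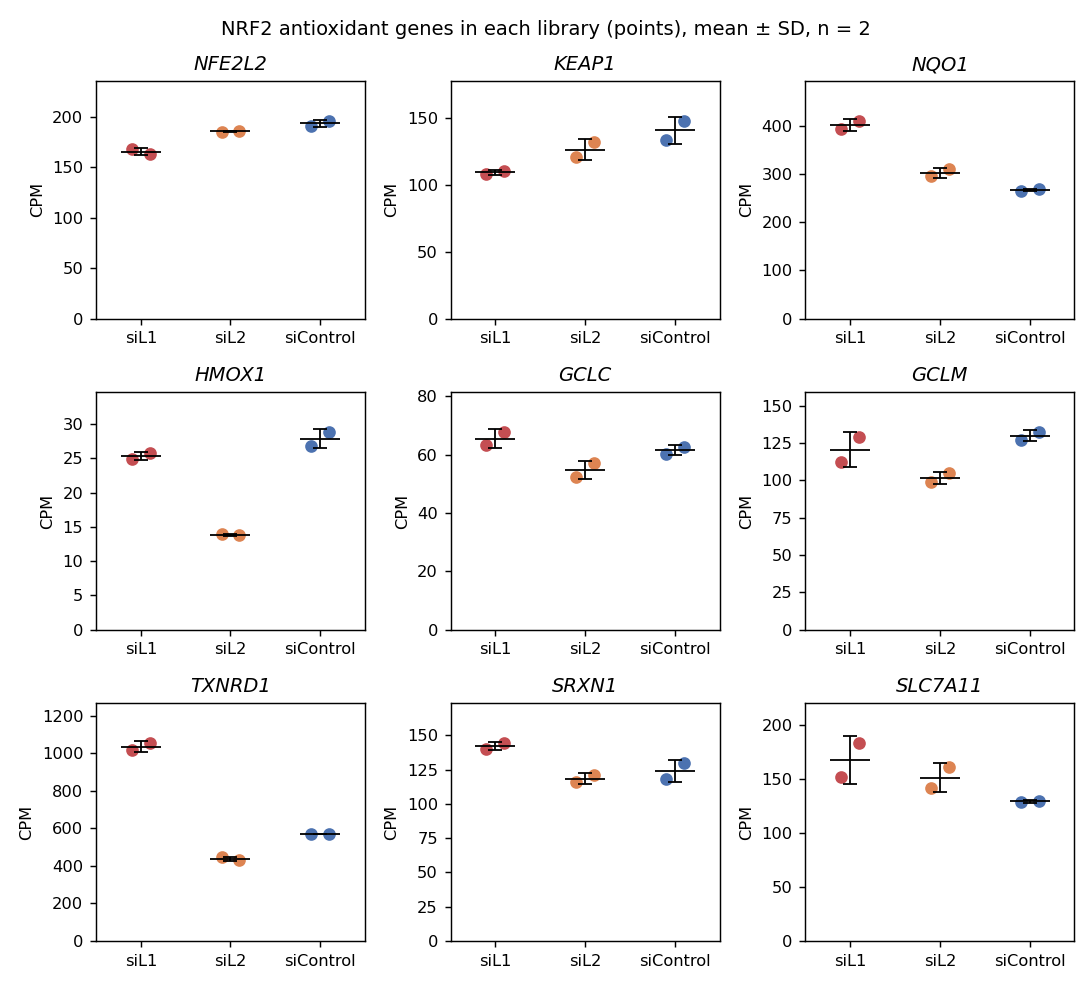
CPM (y axis, linear from 0) of each of the 9 NRF2 antioxidant genes in siL1, siL2 and siControl libraries (x axis). Points are libraries, and bars give the mean and SD of 2 libraries. TXNRD1 stood at 1016 and 1057 CPM in siL1 cells and 445 and 430 CPM in siL2 cells, against 569 CPM in both siControl libraries, and HMOX1 was lowest with siL2.

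All 9 members passed the count filter, so each was tested with edgeR's quasi-likelihood test, with Benjamini-Hochberg adjustment over 13322 genes and a threshold of 0.05. They did not move as a block. With siL1, 4 rose (NQO1, TXNRD1, SRXN1, SLC7A11), 2 fell (NFE2L2, KEAP1) and 3 did not pass the test. With siL2, 2 rose (NQO1, SLC7A11), 5 fell (KEAP1, HMOX1, GCLC, GCLM, TXNRD1) and 2 did not pass. Among all genes tested, 24.7% were higher and 25.7% lower with siL1 (50.4% in all), and 22.6% were higher and 23.3% lower with siL2 (45.8% in all). Without siControl replicate 2 or siL2 replicate 1 the number that fell with siL2 was 3, and without siControl replicate 1, siControl replicate 2 or siL2 replicate 2 the number that rose was 1. The median log2 fold change of the 9 members was 0.10 with siL1, against -0.01 over all tested genes, and -0.16 with siL2, against -0.0036 over all. For the mean of both siRNAs against siControl, 3 members (NQO1, TXNRD1, SLC7A11) were higher and 4 (NFE2L2, KEAP1, HMOX1, GCLM) lower, where 49.3% of all tested genes were called, 23.2% higher and 26% lower. NQO1 and SLC7A11 rose with both siRNAs, KEAP1 fell with both, and TXNRD1 was the 1 member called in opposite directions, as were 4.01% of all tested genes, while 25.2% were called in the same direction. Both comparisons use the same 2 siControl libraries.

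NFE2L2 itself had 168 and 163 CPM in siL1 libraries and 185 and 186 CPM in siL2 libraries, against 191 and 196 CPM in siControl libraries. Every siL1 and siL2 library was below both siControl libraries. NFE2L2 fell by 0.22 in log2 units in siL1 cells (SE 0.0389, adjusted p = 0.000388). With siL2 its log2 fold change was -0.07 (95% interval -0.15 to 0.02, adjusted p = 0.182), which did not pass. About 25.3% of all tested genes fell at least as far as NFE2L2 did with siL1. The whole gene span of NFE2L2 in GENCODE v29 overlaps that of AGPS, a gene of ether lipid synthesis on the opposite strand. Exons were not compared, and the annotation and strand setting of the authors' counting are not given. Whether any counted reads could come from both genes is therefore not known. AGPS moved the other way, with 252 and 261 CPM in siL1 cells and 234 and 236 CPM in siL2 cells, against 193 and 192 CPM in siControl cells.

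KEAP1, the adaptor that presents NRF2 for destruction, had 108 and 111 CPM in siL1 cells and 121 and 132 CPM in siL2 cells, against 134 and 148 CPM in siControl cells. The siL1 libraries were the lowest and the siL2 libraries lay between the other groups without overlap. KEAP1 fell by 0.36 in log2 units in siL1 cells (SE 0.0576, adjusted p = 0.000204) and by 0.16 in siL2 cells (SE 0.0568, adjusted p = 0.0356). The siL2 call ended without siControl replicate 2 (adjusted p = 0.320), without siL2 replicate 1 (0.282), with upper quartile scaling (0.0576) and with DESeq2 (0.0793), and the authors' deposited table gives a fold change of 0.896 with an adjusted p of 0.274. KEAP1 was higher in siL2 than in siL1 cells (log2 difference 0.20, adjusted p = 0.0122), a call that ended without siL1 replicate 1 (adjusted p = 0.0711) or siL2 replicate 2 (0.121).

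Of 22 partners and regulators of NRF2 tested, 6 rose and 6 fell with siL1, beside 24.7% higher and 25.7% lower over all tested genes, and 7 rose and 7 fell with siL2, beside 22.6% higher and 23.3% lower, with medians of 0.05 and -0.03 on the log2 scale. The 7 that rose with siL2 were 4 without siControl replicate 1 or siL2 replicate 2, and the 7 that fell were 4 without siL2 replicate 1. BACH1, a repressor that competes with NRF2 for the antioxidant response element, had 61.2 and 69.0 CPM in siL1 cells and 66.7 and 64.7 CPM in siL2 cells, against 49.2 and 50.8 CPM in siControl cells, and rose by 0.39 on the log2 scale with each siRNA (adjusted p = 0.000278 and 0.000287). SQSTM1, the autophagy receptor that sequesters KEAP1, rose by 0.51 with siL1 (adjusted p = 1.02e-05) and by 0.19 with siL2 (adjusted p = 0.0149). The small MAF gene MAFF rose by 0.58 with siL1 (adjusted p = 6.72e-05) and fell by 0.30 with siL2 (adjusted p = 0.0111), whereas MAFK fell by 0.66 and 0.40 (adjusted p = 0.000109 and 0.00382). SYVN1, an ER ubiquitin ligase that can degrade NRF2, averaged 36.9 ± 3.56 CPM in siL2 cells, against 61.5 ± 1.42 CPM in siControl cells (SD, n = 2 each), and fell by 0.74 (adjusted p = 1.71e-06), with a log2 fold change of 0.13 with siL1 (adjusted p = 0.101). NFE2L1, the related NRF1 factor, fell by 0.19 with siL1 (adjusted p = 0.00248) and rose by 0.26 with siL2 (adjusted p = 0.000286).

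Glutathione is built from cysteine, glutamate and glycine, and the first step is carried out by glutamate-cysteine ligase, made of the catalytic subunit GCLC and the modifier subunit GCLM. GCLC had 63.2 and 67.9 CPM in siL1 cells and 52.5 and 57.1 CPM in siL2 cells, against 60.3 and 62.8 CPM in siControl cells. The siL1 libraries were just above the siControl libraries and the siL2 libraries below them. With siL1 the log2 fold change was 0.10 (95% interval -0.04 to 0.23, adjusted p = 0.214), which did not pass, and with siL2 GCLC fell by 0.17 on the log2 scale (SE 0.0620, adjusted p = 0.0368). The siL2 call ended without siControl replicate 1 (adjusted p = 0.0551), siControl replicate 2 (0.170) or siL2 replicate 1 (0.277), with upper quartile scaling (0.0593) and with DESeq2 (0.109). For GCLC with siL2 the authors' deposited table gives a fold change of 0.888 with an adjusted p of 0.0852. GCLC was lower in siL2 than in siL1 cells (log2 difference -0.27, adjusted p = 0.00308).

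GCLM, whose promoter match is printed above, had 112 and 129 CPM in siL1 cells and 98.8 and 105 CPM in siL2 cells, against 127 and 132 CPM in siControl cells. The siL2 libraries were the lowest of the 6, and the siL1 libraries overlapped the siControl range. GCLM fell by 0.36 in log2 units in siL2 cells (SE 0.0628, adjusted p = 0.000487), a 0.781-fold level. With siL1 the log2 fold change was -0.10 (95% interval -0.24 to 0.03, adjusted p = 0.195). Without siL1 replicate 2, GCLM fell by 0.21 with siL1 (adjusted p = 0.0130), and the difference of siL2 against siL1, -0.25 (adjusted p = 0.00502), was then -0.14 (adjusted p = 0.0800).

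SLC7A11, the cystine and glutamate exchanger that brings in the cysteine source, had 152 and 183 CPM in siL1 cells and 142 and 161 CPM in siL2 cells, against 128 and 130 CPM in siControl cells. Each siRNA library was above both siControl libraries, and the 2 libraries within each siRNA group stood well apart. SLC7A11 rose by 0.38 in log2 units in siL1 cells (SE 0.0792, adjusted p = 0.00141; 0.23 without siL1 replicate 2, adjusted p = 0.0190) and by 0.22 with siL2 (SE 0.0793, adjusted p = 0.0353). The siL2 call ended without siControl replicate 1 (adjusted p = 0.101), siControl replicate 2 (0.0820) or siL2 replicate 2 (0.244, log2 fold change 0.13) and with DESeq2 (0.192). In the authors' deposited table the adjusted p was 0.0513 with siL1 and 0.117 with siL2. The siL2 and siL1 groups overlapped (log2 difference -0.16, 95% interval -0.33 to 0.01, adjusted p = 0.114). That difference passed without siL1 replicate 1 (-0.29, adjusted p = 0.00533) and without siL2 replicate 2 (-0.25, adjusted p = 0.0200), and it also passed with no filter (adjusted p = 0.0204).

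Of 19 other genes of glutathione synthesis and use tested, 7 rose and 6 fell with siL1, and 5 rose and 3 fell with siL2 (3 rose without siControl replicate 2 or siL2 replicate 2). The shares over all tested genes were 24.7% higher and 25.7% lower with siL1, and 22.6% higher and 23.3% lower with siL2. GLO1, the glyoxalase that disposes of methylglyoxal with glutathione, rose by 0.47 and 0.48 log2 units (adjusted p = 1.63e-07 and 1.57e-07), whereas the mitochondrial glutaredoxin GLRX5 fell by 0.33 and 0.26 (adjusted p = 4.27e-05 and 0.000326). SLC7A11 is also a target of the amino acid response factor ATF4. In that list of 22 tested genes, 7 rose and 7 fell with siL1, while 2 rose and 10 fell with siL2 (0 rose without siControl replicate 1 or siL2 replicate 2), with median log2 fold changes of 0.02 and -0.15. SLC7A5, an exchanger for large neutral amino acids, fell by 0.74 and 0.79 (adjusted p = 7.14e-07 and 4.83e-07), unlike SLC7A11.

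TXNRD1, the selenium-containing reductase that recycles cytosolic thioredoxin with NADPH, showed the widest separation of the siRNAs among the 9. It had 1016 and 1057 CPM in siL1 libraries and 445 and 430 CPM in siL2 libraries, against 569 CPM in each siControl library. The 3 groups were apart from one another, with siControl between the siRNAs. TXNRD1 rose 1.83-fold with siL1 (log2 fold change 0.87, SE 0.0351, adjusted p = 2.33e-09) and fell to 0.767-fold with siL2 (log2 fold change -0.38, SE 0.0353, adjusted p = 2.34e-06). The log2 difference of siL2 against siL1 was -1.25 (95% interval -1.33 to -1.18, adjusted p = 1.28e-10), and 1.41% of all tested genes had a difference at least as far below 0. These calls kept their direction and side of the threshold in each of the 14 alternatives run, and the authors' deposited fold changes were 1.83 and 0.767. EID3, which lies within TXNRD1 on the same strand, had 1 to 3 counts per library.

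SRXN1, sulfiredoxin, repairs peroxiredoxins whose active cysteine has been over-oxidised. It had 140 and 145 CPM in siL1 cells and 116 and 121 CPM in siL2 cells, against 118 and 129 CPM in siControl cells. The siL1 libraries were the highest, and the siL2 libraries overlapped the siControl range. SRXN1 rose by 0.20 in log2 units in siL1 cells (SE 0.0511, adjusted p = 0.00500), a call that ended without siControl replicate 1 (0.14, adjusted p = 0.0653). With siL2 the log2 fold change was -0.07 (95% interval -0.18 to 0.04, adjusted p = 0.301), and siL2 was lower than siL1 by a log2 difference of -0.27 (adjusted p = 0.000759).

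Of 17 other thioredoxin and peroxiredoxin genes tested, some were called in the directions of TXNRD1 and some were not. With siL1, 7 rose and 6 fell (3 fell without siControl replicate 2), and with siL2, 3 rose and 5 fell (2 fell without siControl replicate 2 or siL2 replicate 1). Among all tested genes, 24.7% were higher and 25.7% lower with siL1, and 22.6% were higher and 23.3% lower with siL2. TXNRD2, the mitochondrial reductase, rose by 0.46 log2 units with siL1 (adjusted p = 2.74e-05) and fell by 0.19 with siL2 (adjusted p = 0.0177), the directions seen for TXNRD1. Thioredoxin itself, TXN, the substrate of TXNRD1, fell by 0.17 and 0.25 (adjusted p = 0.00207 and 0.000119), and TXNIP, an inhibitor of thioredoxin, fell by 0.54 and 0.27 (adjusted p = 8.48e-07 and 0.000238).

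NQO1, which reduces quinones by a pair of electrons at once and is a standard reporter of NRF2 activity, had 393 and 410 CPM in siL1 cells and 295 and 310 CPM in siL2 cells, against 265 and 269 CPM in siControl cells. All 4 siRNA libraries were above both siControl libraries, and the siL1 libraries were above the siL2 libraries. NQO1 rose by 0.59 in log2 units in siL1 cells (1.51-fold, SE 0.0402, adjusted p = 1.30e-07) and by 0.18 with siL2 (1.13-fold, SE 0.0404, adjusted p = 0.00319), and the rise was smaller in siL2 than in siL1 cells (log2 difference -0.42, adjusted p = 3.36e-06). Each of these calls was kept in the 14 alternatives.

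HMOX1, heme oxygenase, breaks heme into biliverdin, iron and carbon monoxide. It had 24.9 and 25.7 CPM in siL1 cells and 14.0 and 13.8 CPM in siL2 cells, against 26.9 and 28.9 CPM in siControl cells. The siL2 libraries stood far below the rest, and the siL1 libraries lay slightly below the siControl libraries. HMOX1 fell to 0.496-fold with siL2 (log2 fold change -1.01, SE 0.0793, adjusted p = 5.51e-07), and 1.35% of all tested genes fell at least as far. With siL1 the log2 fold change was -0.13 (95% interval -0.30 to 0.03, adjusted p = 0.151). The siL2 level was lower than the siL1 level by a log2 difference of -0.88 (adjusted p = 2.29e-06), and the calls with siL2 were kept in the 14 alternatives.

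**Figure D2:**
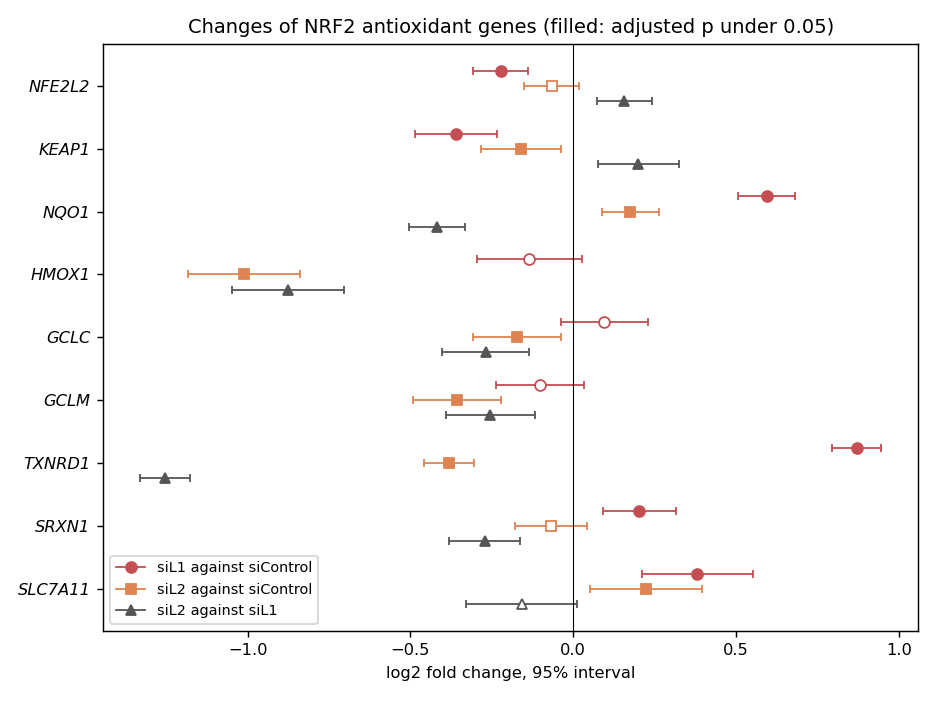
Log2 fold changes (x axis) of the 9 genes for siL1 against siControl, siL2 against siControl and siL2 against siL1, with 95% intervals; filled symbols have an adjusted p under 0.05. TXNRD1 lies at 0.87 and -0.38 on opposite sides of 0, HMOX1 lies at -1.01 with siL2, and 8 of the 9 genes have a filled symbol for siL2 against siL1.

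The siRNAs differed on 8 of the 9 members by a direct test. In siL2 against siL1, 6 members were lower, 2 were higher and 1 did not pass, where 23.7% of all tested genes were lower and 23.2% higher. The median log2 difference of the 9 was -0.27, against 0.00019 over all tested genes, of which 46.8% were called. Without siL1 replicate 1 or siL2 replicate 2, 1 member was higher. The 2 that were higher with siL2 were NFE2L2 (0.16, adjusted p = 0.00502) and KEAP1, while the 6 that were lower were all target genes. The groups did not overlap for 8 of 9 members in each of the 3 comparisons, a share that was 74.7% of all tested genes for siL1 against siControl, 72.9% for siL2 against siControl and 73.3% for siL2 against siL1. For 5 of 9 members all 4 siRNA libraries lay on one side of the siControl libraries, as for 44.9% of all tested genes.

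Of 22 heme and iron genes tested beside HMOX1, 10 rose and 4 fell with siL1 (1 fell without siL1 replicate 2), and 8 rose and 4 fell with siL2 (median log2 fold changes 0.08 and 0.11). Over all tested genes, 24.7% were higher and 25.7% lower with siL1, and 22.6% were higher and 23.3% lower with siL2. BLVRB, a biliverdin reductase, averaged 46.4 ± 0.385 CPM in siL1 cells and 39.4 ± 0.112 CPM in siL2 cells, against 28.0 ± 0.467 CPM in siControl cells (SD, n = 2 each). It rose by 0.74 and 0.49 log2 units (adjusted p = 7.31e-07 and 2.93e-05), unlike HMOX1. BLVRA, the other biliverdin reductase in the list, was called with neither siRNA (log2 fold changes 0.06 and 0.11, adjusted p = 0.501 and 0.226). The late enzymes of heme synthesis did not move together. FECH and CPOX were called lower with siL2 and not called with siL1, whereas PPOX, the enzyme between them, fell by 0.52 with siL1 (adjusted p = 0.00993) and rose by 0.47 with siL2 (adjusted p = 0.00996). FECH fell by 0.80 with siL2 (adjusted p = 7.05e-07) and had a log2 fold change of -0.0013 with siL1 (adjusted p = 0.988), and the siRNAs differed (log2 difference of siL2 against siL1 -0.80, adjusted p = 7.55e-07). CPOX fell by 0.85 with siL2 (adjusted p = 2.07e-07) and was likewise lower than in siL1 cells (log2 difference -0.92, adjusted p = 1.23e-07).

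A further list held 34 genes often cited as human NRF2 targets, 23 of them shared with the other lists; CYP4F3 and NR0B1 were at 0 in all libraries and LUCAT1 was not matched. Of 26 tested, 12 rose and 4 fell with siL1 (2 fell without siControl replicate 2 or siL1 replicate 1), and 11 rose and 4 fell with siL2 (median log2 fold changes 0.11 and 0.07). The shares over all tested genes were 24.7% higher and 25.7% lower with siL1, and 22.6% higher and 23.3% lower with siL2. TRIM16, which has been placed in the SQSTM1 and KEAP1 stress response, averaged 59.3 ± 1.86 CPM in siL1 cells and 53.1 ± 1.57 CPM in siL2 cells, against 29.1 ± 0.0051 CPM in siControl cells (SD, n = 2 each). It rose by 1.03 and 0.86 (adjusted p = 3.77e-08 and 1.88e-07). It has a near copy, TRIM16L, which also rose, so the split of reads between the pair is uncertain. OSGIN1, an oxidative stress induced growth inhibitor, rose by 0.88 and 0.47 (adjusted p = 2.06e-06 and 0.000488), more with siL1 than with siL2 (log2 difference of siL2 against siL1 -0.41, adjusted p = 0.000774), the order also seen for NQO1.

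**Figure D3:**
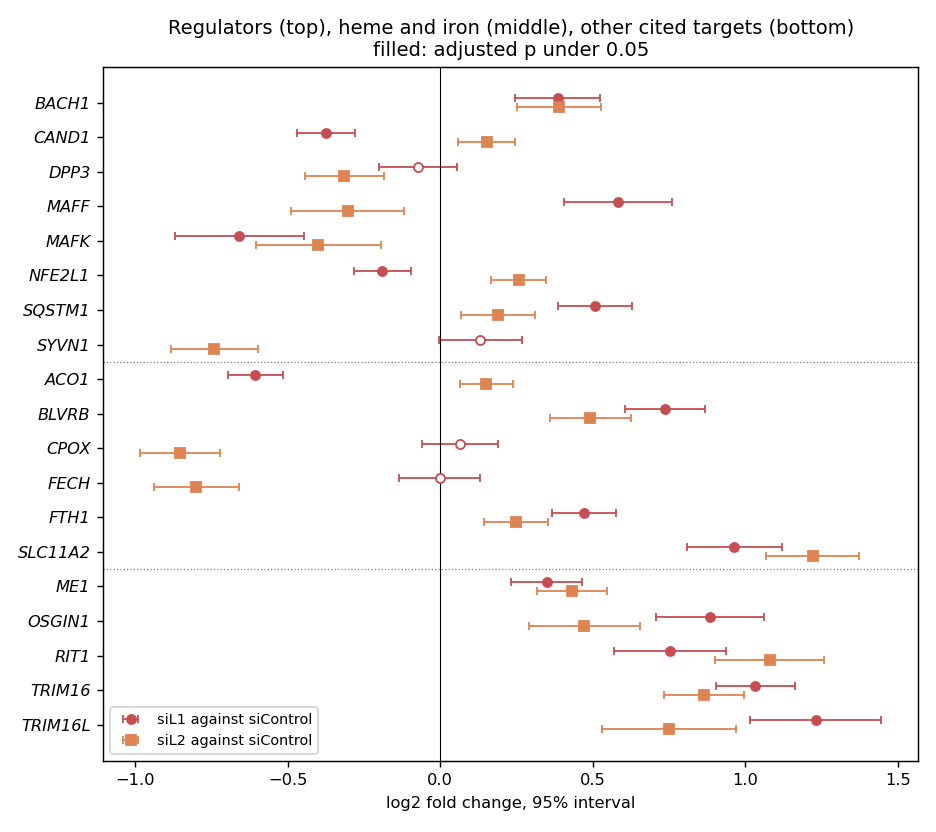
Log2 fold changes (x axis) with 95% intervals for named genes of 3 lists, siL1 and siL2 each against siControl; filled symbols have an adjusted p under 0.05. TRIM16, TRIM16L, OSGIN1, RIT1, SLC11A2 and BLVRB lie above 0 with both siRNAs, whereas FECH and CPOX lie near 0 with siL1 and at -0.80 and -0.85 with siL2.

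Genes around the same chemistry were counted in 3 more lists, each set against the shares over all tested genes given above. Of 28 detoxication enzymes and exporters tested, 10 rose and 2 fell with siL1, and 11 rose and 4 fell with siL2 (7 rose and 2 fell without siControl replicate 1, and 1 fell with siL1). ABCC3, an exporter of organic anions, rose by 1.81 and 1.75 log2 units (adjusted p = 5.08e-05 and 7.45e-05). Its level was low, at a mean of 2.92 CPM in siL1 cells and 2.82 CPM in siL2 cells, against 0.832 CPM in siControl cells. Of 14 superoxide, peroxide and oxidase genes, 9 rose and 0 fell with siL1, and 6 rose and 1, the monoamine oxidase MAOA, fell with siL2 (2 without siControl replicate 1). Their median log2 fold changes were 0.39 and 0.37, and catalase, CAT, rose by 0.61 and 0.37 (adjusted p = 3.92e-07 and 3.58e-05). The 9 that rose with siL1 include XDH and NOX5, which were near silent. XDH averaged 0.728 CPM in siL1 cells and 0.175 CPM in siControl cells, and NOX5 averaged 0.558 and 0.195 CPM. Of 18 genes that supply NADPH, the reductant used by TXNRD1 and NQO1, 3 rose and 10 fell with siL1 and 2 rose and 8 fell with siL2 (median log2 fold changes -0.16 and -0.12). The folate enzyme MTHFD2 fell by 0.63 and 0.66 (adjusted p = 4.96e-07 and 3.61e-07), whereas the cytosolic isocitrate dehydrogenase IDH1 rose by 0.46 and 0.63 (adjusted p = 1.63e-06 and 1.04e-07).

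**Figure D4:**
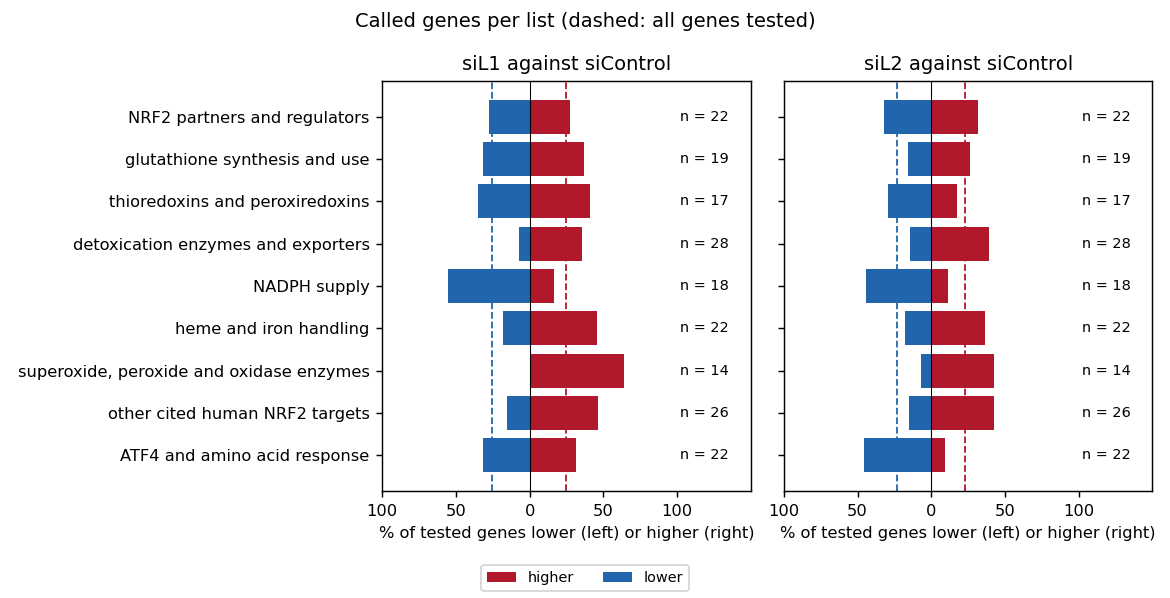
Share of the tested genes of each list that was lower (left of 0) or higher (right of 0) with siL1 and with siL2 against siControl, in percent (x axis), at an adjusted p under 0.05; dashed lines give the shares over all 13322 tested genes. The oxidase list has 9 of 14 genes higher with siL1, and the NADPH list has 10 of 18 lower.

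Genes with the pattern most like that of a member were named by the smallest root mean square difference in log2 CPM, relative to the siControl mean, over the 6 libraries, among 10446 other genes averaging 5 CPM or more. For TXNRD1 this was NT5E, the surface 5'-nucleotidase CD73, at 0.031 log2 units, with mean log2 differences from siControl of 0.90 with siL1 and -0.38 with siL2, beside 0.87 and -0.38 for TXNRD1; ACOX2 followed at 0.083. For HMOX1 the nearest were BLCAP at 0.063 and the zinc transporter SLC30A9 at 0.071, and for NQO1 they were ZNF12 at 0.022 and SCAMP4 at 0.028. NFE2L2 was nearest to TACC3, a mitotic spindle protein gene, at 0.008. None of these is a member of the lists used here.

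Short 3' UTR sequences that had already been seen to go with changes in these libraries were looked up in the longest GENCODE v29 3' UTR of each member, as a description only, because the siRNA sequences are not known. Because the sequences were chosen from these same libraries, the shares given here restate that choice and are not independent evidence. Of 1089 tested genes with GTTACAA in the 3' UTR, 42.8% were lower with siL2, against 22.5% of 10301 genes without it. With siL1, 24.2% of genes with GTTACAA were lower, against 26.5% without it, and 29.8% were higher, against 25.9%. TXNRD1 held 1 copy of GTTACAA in a 3' UTR of 1887 bases, and none of the other 8 members held it, HMOX1 included. TACATTT or ACATTTA went with rises with both siRNAs: 33.6% of 4020 genes with either were higher with siL1, against 22.3% of 7370 without, and 31.3% against 19.7% with siL2. SLC7A11 held 5 copies in 7862 bases, and TXNRD1, GCLC and GCLM held 1 each, while NQO1, SRXN1, NFE2L2, KEAP1 and HMOX1 held 0. ACAGAGC occurred in GCLM alone, with 2 copies in 3788 bases; 24.6% of genes with it were lower with siL2, against 24.3% without, and 29.7% were lower with siL1, against 25.6% without. Longer 3' UTRs hold more heptamers of any kind, and the part of these sequences in the members' changes was not tested.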

How the data were processed

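RNA-seq of 6 libraries gave 1 table of the whole series. Per the submitters' processing notes the authors used TopHat 1.3.3, HTSeq and DESeq with hg19; the options, gene annotation and strandedness are not given in the sources used here. The deposited columns are raw read counts per gene symbol without normalization, the authors' linear fold change (a ratio of each siRNA over siControl) and the authors' adjusted p-value. From the counts, CPM were computed on library totals. The filterByExpr filter kept 13322 genes and left out 10046. Counts were scaled by TMM and fitted over all 6 libraries with group as the only term in edgeR 4.0.16 (glmQLFit, glmQLFTest, 3 residual degrees of freedom, two-sided, Benjamini-Hochberg, threshold 0.05) under R 4.3.3; SEs are the log2 fold change over the square root of F. The common biological coefficient of variation was 3.72%. The siL1 comparison was tested on simulated data over 13277 genes: 86 of 100 genes planted with a log2 change of 1 in size were called in the right direction and 82 of 100 with 0.5, with 14 calls among 13077 unchanged genes. The simulation gave every gene the same dispersion and changed only the planted genes, in siL1 alone. In the data 50.4% of tested genes were called with siL1, so these rates check the code and do not measure performance on these libraries. The members, lists and heptamers were chosen with earlier results of these data known. Named genes were KDM1A, the members, up to 4 genes per list with the smallest p in each comparison with siControl, and the 2 nearest genes per member. AGPS, EID3, PPOX, BLVRA, XDH, NOX5 and the genes given for the direction of a small count were added after their values were seen. Older symbols were matched for AMER1, MSRB1 and NADK2. Promoters were from RefSeq (GRCh38.p14) and 3' UTRs of at least 50 bases from GENCODE release 29, matched for 85.5% of tested genes. Replicates differed by more than counting noise in every group (chi-square over degrees of freedom 3.11 to 3.30), so no library was a copy. The alternatives were DESeq2 size factors, upper quartile scaling, no filter, 1 CPM in 2 libraries, DESeq2 1.42.0, limma-voom (limma 3.58.1), a replicate block, only the groups compared, and each library left out.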

Additional observations from a re-analysis of the deposited data

Results flagged for a closer look

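For 8 of the 9 members the change differed between the siRNAs by a direct test of siL2 against siL1 (edgeR, adjusted over all genes tested, 46.8% of which passed). The log2 differences were -1.25 for TXNRD1 (adjusted p = 1.28e-10), -0.88 for HMOX1 (2.29e-06), -0.42 for NQO1 (3.36e-06), -0.27 for SRXN1 (0.000759), -0.27 for GCLC (0.00308) and -0.25 for GCLM (0.00502), all lower with siL2. NFE2L2 at 0.16 (0.00502) and KEAP1 at 0.20 (0.0122) were higher with siL2. KDM1A was also lower in siL2 than in siL1 cells (log2 difference -0.66), and its part in these differences was not tested. With 2 libraries per group no library could be tested as standing apart.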

How the results depend on the processing

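Over the 3 comparisons, 19 of 27 member results kept their direction and side of the threshold in all 14 alternatives, and 8 lost or gained the call in at least 1; no called member result changed direction. With siL2 against siControl, 2 members were higher and 5 lower, against 3 lower with upper quartile scaling, and 1 higher and 3 lower with DESeq2. Leaving out each library gave 1 to 2 higher and 3 to 5 lower, and for siL2 against siL1 gave 1 to 2 higher; leave-one-out fits use fewer samples, and for the other settings the cause was not tested. The replicate number does not mark a shared culture in the labels, and within-group deviations of same-numbered libraries correlated at 0.133 to 0.198. With the number as a block, 4 members were higher and 3 lower with siL1, GCLM passing (log2 fold change -0.10, adjusted p = 0.0142), SLC7A11 passed in siL2 against siL1 (-0.16, adjusted p = 0.000115), no other member call changed, and calls over all genes with siL1 numbered 3877 higher and 4159 lower, against 3289 and 3423 without it. The members had at least 339 counts in each library, and the part of depth in their errors was not tested. The calls near the threshold (KEAP1, GCLC and SLC7A11 with siL2) changed when single libraries were left out.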
